A study of Homo sapiens with 6 samples.

Results

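The antioxidant and glutathione enzymes described here are 45 of the 18164 genes in a table of read counts from LNCaP cells, a human prostate cancer line that grows in response to androgen. A gene was a member if it was protein coding, lay on a primary chromosome and was named as a glutathione peroxidase, peroxiredoxin, superoxide dismutase, glutathione S-transferase, thioredoxin, thioredoxin reductase or glutaredoxin. The genes CAT, GCLC, GCLM, GSS, GSR, NQO1, SRXN1, NFE2L2, KEAP1 and AIFM2 were members by name. Of 49 names that fit, 3 were not annotated as protein coding and 1, GSTT1, was on an alternate scaffold, which left 45. The rule itself used names, gene type and chromosome rather than measured values, but it was set with earlier results of these data known. Only genes with a count of at least 9 in 3 or more libraries were in the table.

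The tested cells received enzalutamide, an antagonist of the androgen receptor, at 5 µM for 14 days (3 libraries), and the control cells received the DMSO vehicle alone (3 libraries). Both groups are wild-type LNCaP cells from a single cell line, grown in serum-containing medium with 0.1% DMSO and the same feeding schedule. Controls were collected at 70 to 80% confluency, so any difference in culture time or density between the groups cannot be told apart from the drug. The labels name replicates but not separate cultures, and the p-values then measure only the spread between these libraries, which may be technical.

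Glutathione is a small thiol made in a first, rate-limiting step by glutamate-cysteine ligase and in a second step by glutathione synthetase. Glutathione peroxidases use it to reduce peroxides, glutathione S-transferases attach it to reactive compounds, and glutathione reductase returns the oxidised form with electrons from NADPH. Thioredoxin and its reductase form a parallel chain that feeds the peroxiredoxins. NRF2, the product of NFE2L2, drives many of these genes through the antioxidant response element, and KEAP1 holds NRF2 back by sending it for degradation. Prostate cells secrete large amounts of protein under androgen control, and PRDX4 and GPX8 work in the endoplasmic reticulum where such proteins fold.

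Selenocysteine is written in the mRNA as a UGA codon, which otherwise ends translation, and 4 of the members carry one in the GENCODE annotation of GRCh38. The windows are shown because they set the thioredoxin reductases apart from GPX4: in the reductases a single codon stands between it and the stop, and in GPX4 it lies well inside. Each is printed 5′ to 3′ on the coding strand as DNA, with the selenocysteine codon in capitals and 18 bases before and 6 after it.
GPX4, codon 73 of 197, chr19:1105403-1105405, plus strand: accaacgtggcctcccagTGAggcaag
TXNRD1, codon 498 of 499, chr12:104348413-104348415, plus strand: atcctccaggctggctgcTGAggttaa
TXNRD2, codon 523 of 524, chr22:19877111-19877113, minus strand: cccacggtgacaggctgcTGAgggtaa
TXNRD3, codon 642 of 643, chr3:126607911-126607913, minus strand: atcactcagaaaggctgcTGAggctag
The last 3 bases of each reductase window are its ordinary stop codon, taa or tag. Of these selenoprotein genes, TXNRD1 fell in enzalutamide cells, and GPX4, TXNRD2 and TXNRD3 did not pass the test; their values are given with their families.

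Promoter windows of RefSeq (GRCh38.p14) span 250 bases before to 50 bases after a gene start, and 36 of the 45 members had 53 such windows. The core of the antioxidant response element, TGACNNNGC on either strand, was in 9 of the 53 member windows and in 4687 of all 35116 windows (13.3%). By member, it was in 1 of 8 that were higher, 2 of 7 that were lower and 5 of 21 that did not pass the test. Some of the matches upstream of the start, picked after they were seen, are shown: the match of AIFM2 (higher), that of GCLM and 1 of 2 in KEAP1 (neither past the test), and 2 of 3 in TXNRD1 (lower), at separate starts. GSTO1 held 2 more, GSTA4 and TXNL1 held 1 each, and MGST1 held 1 after its start. Sequences are printed with the matched letters in capitals and each read on the gene's own strand.
AIFM2, chr10:70132827-70132859, minus strand: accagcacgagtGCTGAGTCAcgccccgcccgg
GCLM, chr1:93909444-93909476, minus strand: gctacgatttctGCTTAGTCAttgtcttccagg
KEAP1, chr19:10502782-10502814, minus strand: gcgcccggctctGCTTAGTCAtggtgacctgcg
TXNRD1, chr12:104215668-104215700, plus strand: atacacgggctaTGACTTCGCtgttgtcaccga
TXNRD1, chr12:104286918-104286950, plus strand: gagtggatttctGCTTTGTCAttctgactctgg
The AIFM2 match overlaps the AP-1 motif TGACTCA, which was in 1 of the 53 member windows (1.89%) and in 4.95% of all windows. The exact palindrome of the androgen response element was in 0 of the 53 member windows and in 1 of all 35116. A match describes letters in these windows and is not evidence of binding. Sequence outside the windows was not searched, so the lack of a match does not show that a gene lacks the element.

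The libraries held 42302153 to 52107644 counts with enzalutamide and 35578160 to 42540487 counts with DMSO. The first principal component (90.8% of the variance) separated the groups, and the second (5.93%) set enzalutamide replicate 1 apart. Members spread more between the enzalutamide libraries than between the DMSO libraries. Their median SD of log2 CPM (library-scaled counts per 1e6) was 0.20 against 0.053, and the enzalutamide SD was the larger in 40 of 45. Over 13952 genes with a mean of at least 1 CPM, the median SDs were 0.19 and 0.075. Members were also higher in enzalutamide replicate 1 than in replicate 3, with a median log2 difference of 0.29 and 33 of 45 above 0, where the median of the 13952 genes was 0.01. Shorter genes had the larger difference (Spearman's rho of length against it -0.43 over members and -0.27 over the 13952 genes, across genes that share these libraries). Mitochondrial transcripts took 12.1, 13.6 and 15.7% of the counts in enzalutamide replicates 1 to 3 and 10.5, 11.2 and 10.8% in DMSO replicates 1 to 3. The part of these values in the results was not tested.

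**Figure D1:**
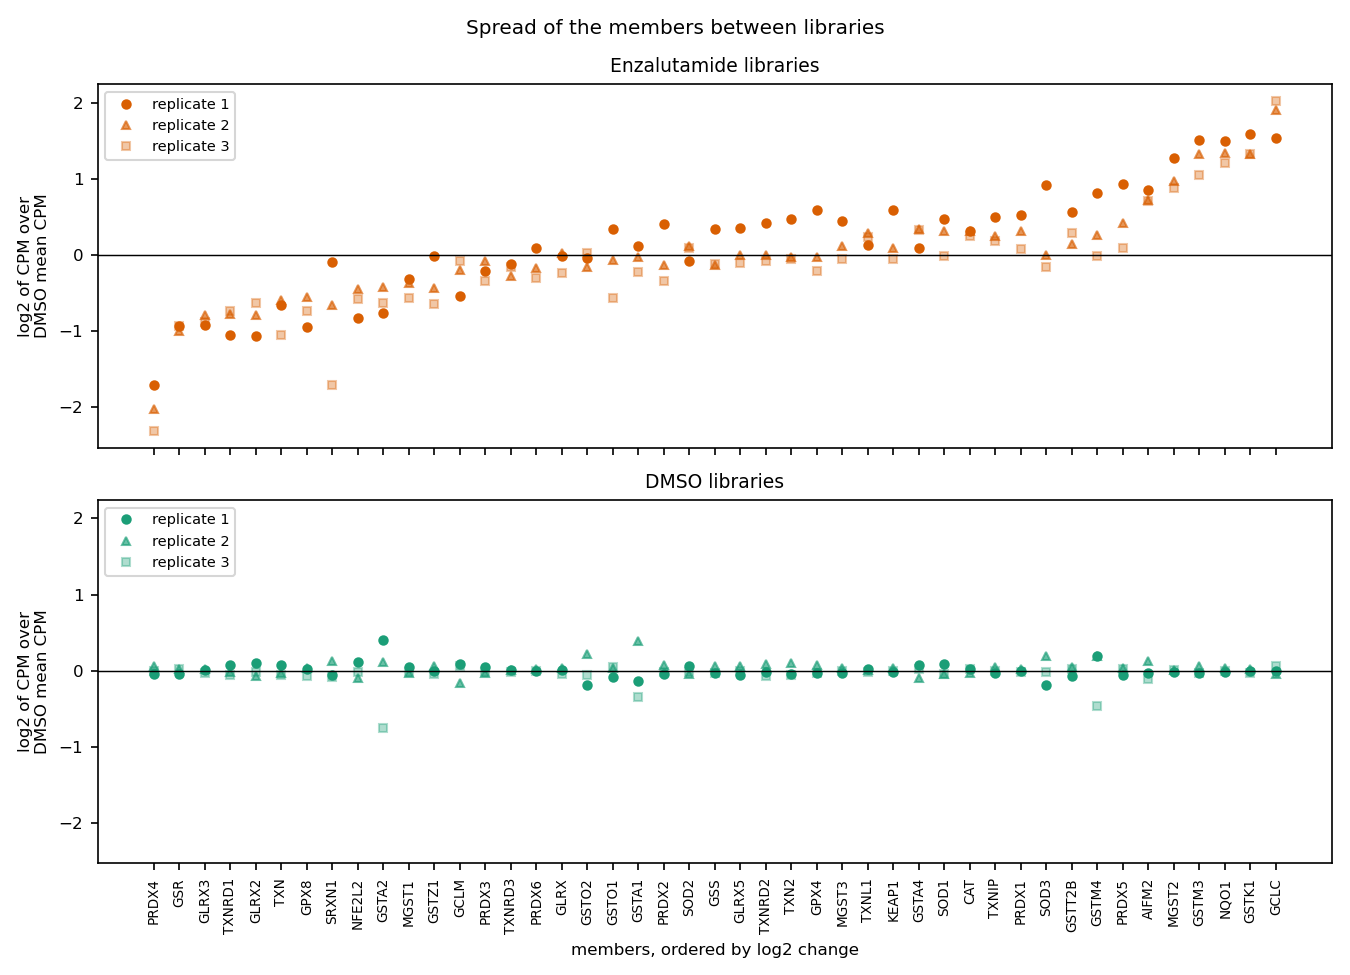
Log2 of each library's CPM over the mean CPM of the 3 DMSO libraries, for each of the 45 members ordered by log2 change, with the enzalutamide libraries in the upper panel and the DMSO libraries in the lower. The 3 enzalutamide libraries lie further from each other than the 3 DMSO libraries do in 40 of the 45 members.

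Of the 45 members, 19 passed the test (42.2%), 10 higher and 9 lower in enzalutamide cells, where 59.2% of all genes passed (30.0% higher and 29.2% lower). The members' share was below that of all genes in each direction, and read against this background the counts do not set the members apart as a group that changed. The median log2 change was 0.04 over members and 0.00 over all genes, and the median absolute log2 change was 0.32 and 0.55. By at least 2-fold, 5 members rose (14.7% of all genes), namely GCLC, GSTK1, NQO1, GSTM3 and MGST2, and 1 fell (12.3% of all genes), PRDX4, so that 6 changed by this much, against 27.0% of all genes. The CPM values of the groups did not overlap in 25 members, against 66.4% of all genes. Without DMSO replicate 1, 2 or 3 the count of higher members was 6 each time, since CAT, PRDX1, PRDX5 and TXNIP missed the threshold. The count over all genes was then also lower, at 4677, 4713 and 4672 higher genes, against 5450 with all libraries. Without enzalutamide replicate 1, 13 members were higher and 15 lower, and 71.2% of 18142 genes passed (35.6% in each direction). In bulk RNA, fewer cells of a type and less RNA per cell cannot be told apart.

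**Figure D2:**
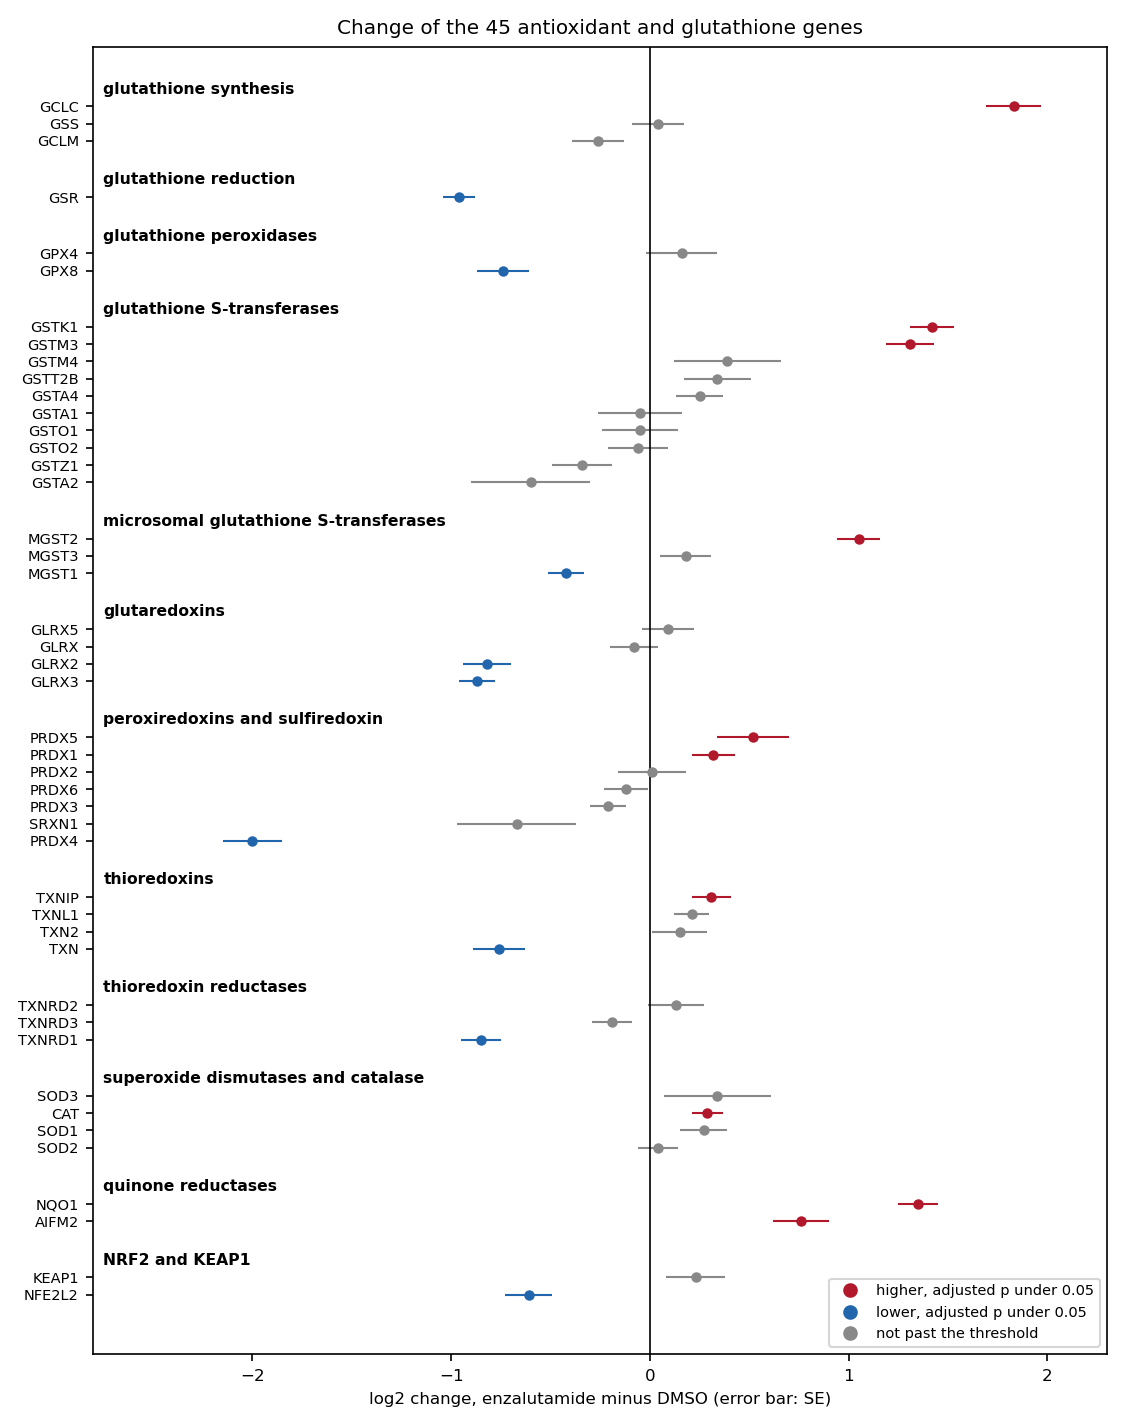
Log2 change of each of the 45 members, enzalutamide minus DMSO, with its standard error, grouped by family. Members past an adjusted p of 0.05 are coloured; GCLC is highest at 1.83 and PRDX4 lowest at -2.00.

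Of the 3 genes for glutathione synthesis, 1 rose and 2 did not pass the test. Values are CPM on scaled library sizes in replicates 1, 2 and 3 of each group, and log2 changes are given with the standard error (SE) and with the adjusted p of edgeR's quasi-likelihood test over all genes. GCLC, on chr6:53497341-53616970, encodes the catalytic subunit of glutamate-cysteine ligase. It had 67.1, 86.7 and 94.2 CPM with enzalutamide, against 23.1, 22.4 and 24.1 CPM with DMSO. All 3 enzalutamide libraries lay above the DMSO libraries. The log2 change was 1.83 ± 0.14 (SE), adjusted p = 1.77e-06, the largest rise among the members. GCLM encodes the modifier subunit, which raises the activity of GCLC. Its values were 48.9, 62.3 and 67.4 CPM with enzalutamide and 76.0, 63.9 and 74.2 CPM with DMSO, which overlap, with a log2 change of -0.26 ± 0.13 and adjusted p = 0.116. GSS, glutathione synthetase, had 182, 131 and 132 CPM with enzalutamide and 140.2, 150.3 and 141 CPM with DMSO. Its log2 change was 0.04 ± 0.13 (adjusted p = 0.794), and -0.12 without enzalutamide replicate 1.

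Per length, as RPKM (CPM divided by gene length in kilobases), the level of GCLC over that of GCLM was 0.865, 0.877 and 0.880 in enzalutamide replicates 1 to 3, against 0.192, 0.220 and 0.205 in DMSO replicates 1 to 3. The ratio was thus higher in the enzalutamide cells. How near it lies to equal levels depends on the deposited gene lengths, which need not be those of the transcripts expressed. Equal levels of the subunit transcripts therefore cannot be read from it. The exact two-sided permutation p was 0.100, the smallest that 3 against 3 allows, and 0.100 when adjusted over the 3 ratios computed. GCLC did not overlap between the groups, and GCLM varied too little between libraries, 48.9 to 76.0 CPM, to undo this. The separation of the ratio and its p therefore follow from GCLC and add no support. The other ratios are those of TXNIP over TXN and of MGST2 over MGST1.

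GSR, glutathione reductase, which returns oxidised glutathione to its reduced form, fell. It had 206, 197 and 206 CPM with enzalutamide, against 383, 400.4 and 399.5 CPM with DMSO, and no library of one group reached the other. The log2 change was -0.96 ± 0.08 (adjusted p = 4.60e-06), with the enzalutamide mean 0.515 times the DMSO mean.

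Neither glutathione peroxidase rose. GPX4, the selenoenzyme that reduces lipid hydroperoxides in membranes, had 172, 112 and 98.0 CPM with enzalutamide and 111, 120.0 and 111 CPM with DMSO. Enzalutamide replicate 1 was the highest of the 6 and replicate 3 the lowest; the log2 change of 0.16 ± 0.18 did not pass (adjusted p = 0.481) and was -0.11 without replicate 1. GPX8, which sits in the membrane of the endoplasmic reticulum, fell. Its levels were 5.53, 7.30 and 6.39 CPM with enzalutamide, against 10.9, 11.0 and 10.2 CPM with DMSO, which do not overlap (log2 change -0.74 ± 0.13, adjusted p = 8.82e-04). GPX1, the main cytosolic peroxidase, is annotated as a polymorphic pseudogene and was no member. It had 106, 66.5 and 55.2 CPM with enzalutamide and 94.6, 104 and 101 CPM with DMSO, a log2 change of -0.39 ± 0.20 (adjusted p = 0.116). Reads of GPX1 can also be shared with its processed pseudogene GPX1P1.

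**Figure D3:**
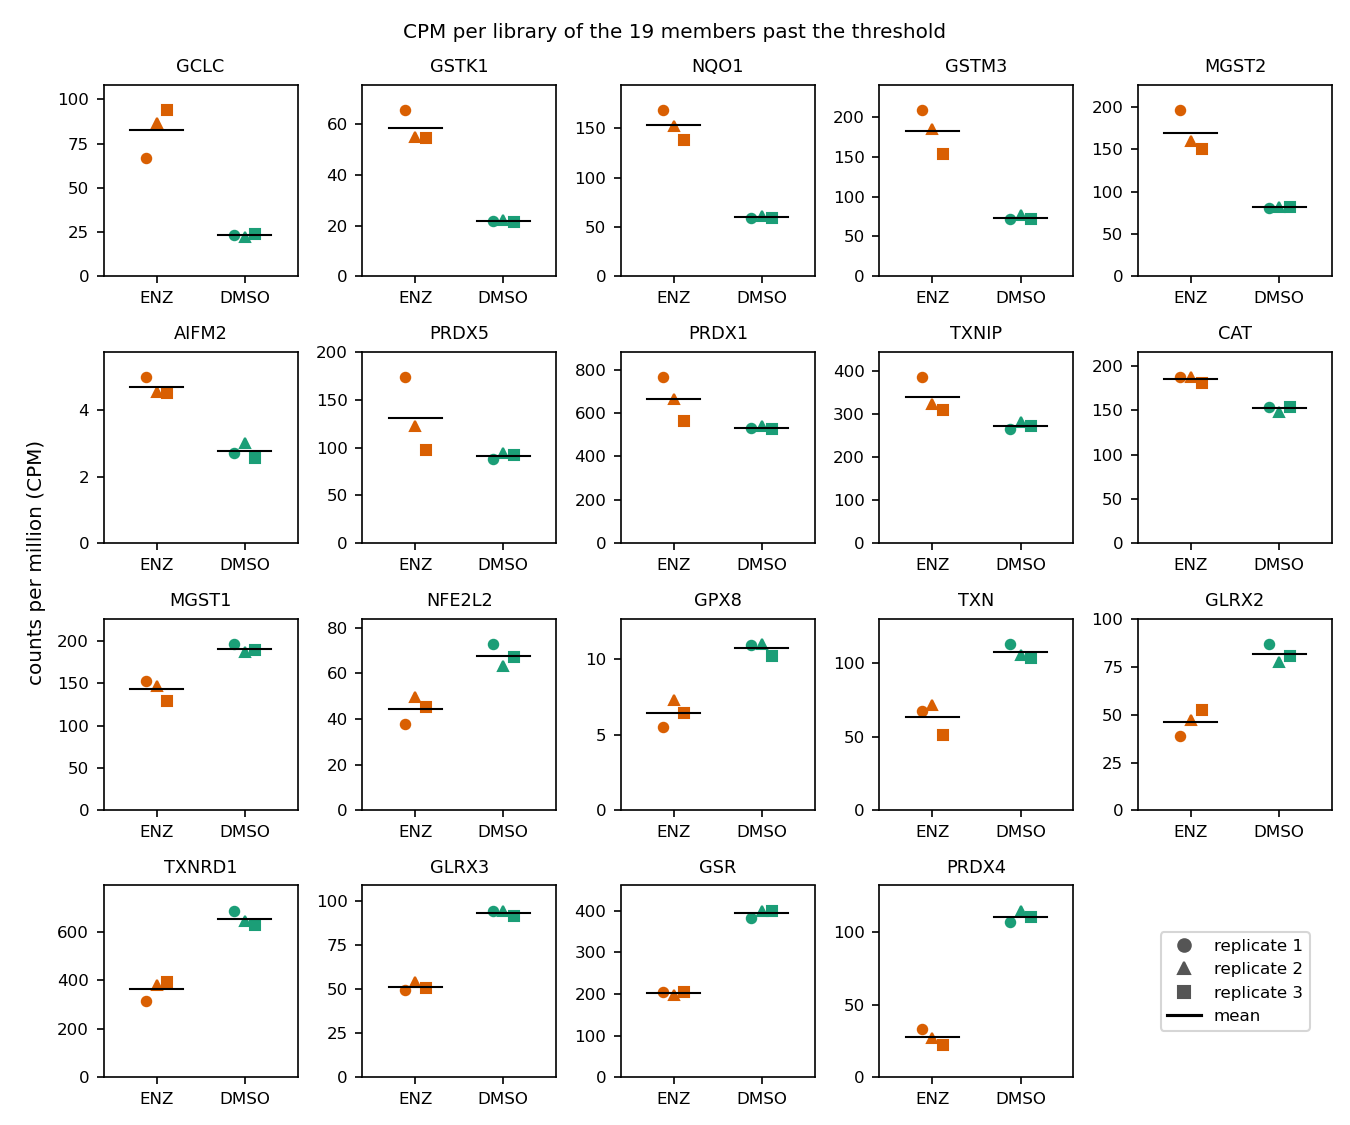
CPM of the 19 members past the threshold in the 3 enzalutamide (ENZ) and 3 DMSO libraries, 1 panel per gene with a linear axis from 0, ordered by log2 change. Points are libraries and lines are means; in every panel the groups do not overlap, with GCLC 67.1 to 94.2 CPM in ENZ against 22.4 to 24.1 CPM in DMSO and PRDX4 22.2 to 33.7 CPM in ENZ against 107 to 115 CPM in DMSO.

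Among the 10 glutathione S-transferases outside the microsomal group, 2 rose, 8 did not pass and 0 fell. Their median log2 change was 0.10. GSTK1, a transferase of mitochondria and peroxisomes, had 65.7, 54.7 and 54.4 CPM with enzalutamide and 21.8, 22.2 and 21.4 CPM with DMSO. The groups did not overlap, and the log2 change was 1.42 ± 0.11 (adjusted p = 2.75e-06). GSTM3, a cytosolic transferase of the mu class, had 209, 184 and 153 CPM with enzalutamide and 72.0, 76.8 and 72.4 CPM with DMSO. Its log2 change was 1.31 ± 0.12 (adjusted p = 8.90e-06), with every enzalutamide library above every DMSO library. Per length, GSTM3 stood first of these transferases in enzalutamide cells (38.4 RPKM) and second in DMSO cells (15.5 RPKM). GSTO1, the omega-class enzyme, stood second in enzalutamide cells (23.1 RPKM) and first in DMSO cells (24.0 RPKM).

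The other transferases ranged in log2 change from -0.60 (GSTA2) to 0.39 (GSTM4). Reads of GSTA1 and GSTA2, of GSTM4 and of GSTT2B can be shared with near-identical relatives, so their counts are uncertain. GSTZ1, which isomerises a product of tyrosine breakdown, had 48.0, 36.0 and 31.2 CPM with enzalutamide and 48.4, 50.6 and 47.2 CPM with DMSO (log2 change -0.34 ± 0.15, adjusted p = 0.0733). Without enzalutamide replicate 1 its adjusted p was 5.42e-08 at a log2 change of -0.52. GSTZ1 was singled out after its values were seen.

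The membrane-bound transferases divided. MGST2, which conjugates glutathione to leukotriene A4 and other lipids, had 197, 159.9 and 149.9 CPM with enzalutamide and 80.3, 82.0 and 82.3 CPM with DMSO. It rose by a log2 change of 1.05 ± 0.11 (adjusted p = 2.77e-05), with no overlap. The exons of MAML3 on the other strand share 252 bases with those of MGST2, and MAML3 also rose (80.5 and 27.4 CPM on average, log2 change 1.56). MGST1, which detoxifies lipid peroxides and foreign compounds, had 153, 147 and 129 CPM with enzalutamide and 197, 187 and 189 CPM with DMSO. It fell by a log2 change of -0.42 ± 0.09 (adjusted p = 0.00333). The third member, MGST3, had a log2 change of 0.18 ± 0.13 (adjusted p = 0.251). MGST2 over MGST1 was 3.02, 2.56 and 2.72 in RPKM with enzalutamide and 0.957, 1.03 and 1.02 with DMSO (exact permutation p = 0.100, adjusted 0.100). The groups did not overlap in either gene and the genes moved in opposite directions. The separation of this ratio and its p therefore follow from the single genes and add no support.

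Of 4 glutaredoxins, which use glutathione to reduce mixed disulfides or to carry iron-sulfur clusters, 2 fell and 2 did not pass. GLRX3, a cytosolic carrier of iron-sulfur clusters, had 49.5, 54.1 and 50.6 CPM with enzalutamide, against 94.5, 94.8 and 91.5 CPM with DMSO (log2 change -0.87 ± 0.09, adjusted p = 2.22e-05). GLRX2, the mitochondrial disulfide reductase, had 39.1, 47.3 and 52.6 CPM with enzalutamide, against 87.3, 77.5 and 80.6 CPM with DMSO (log2 change -0.82 ± 0.12, adjusted p = 2.64e-04). In both, all enzalutamide libraries were below all DMSO libraries. GLRX2 shares 481 exon bases with RO60 on the other strand, which also fell (log2 change -0.39). GLRX5 and GLRX had log2 changes of 0.09 and -0.08.

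In the thioredoxin chain, the carrier and its cytosolic reductase both fell. TXN, the cytosolic thioredoxin, had 67.6, 71.1 and 51.3 CPM with enzalutamide, against 113, 105 and 103 CPM with DMSO (log2 change -0.76 ± 0.13, adjusted p = 5.89e-04). TXNRD1, the selenoenzyme that reduces it, had 314, 382 and 392 CPM with enzalutamide, against 688, 646 and 629 CPM with DMSO (log2 change -0.85 ± 0.10, adjusted p = 6.25e-05). Neither gene had an enzalutamide library within the DMSO range. TXNIP, which binds reduced thioredoxin and limits its activity, had 388, 324 and 309.6 CPM with enzalutamide and 267, 282 and 273 CPM with DMSO. It rose by a log2 change of 0.31 ± 0.10 (adjusted p = 0.0242), and its adjusted p was 0.0595 to 0.0902 when any DMSO library was left out and 0.0612 under the replicate block.

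The RPKM of TXNIP over that of TXN was 1.60, 1.27 and 1.68 with enzalutamide and 0.659, 0.751 and 0.740 with DMSO (exact permutation p = 0.100, adjusted 0.100). Both genes had no overlap between the groups and moved in opposite directions. The ratio was thus bound to separate, and its p adds no support to the single-gene results. The mitochondrial thioredoxin TXN2, with a log2 change of 0.15 ± 0.14, and its reductase TXNRD2, with 0.13 ± 0.14, did not pass. TXNRD3, a reductase best known from testis, was at -0.19 ± 0.10, and TXNL1, a thioredoxin-like protein of the proteasome, at 0.21 ± 0.09 (adjusted p = 0.0638).

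Among 6 peroxiredoxins and the sulfiredoxin SRXN1, 2 rose, 1 fell and 4 did not pass. PRDX4, on chrX:23664262-23686397, is the peroxiredoxin of the endoplasmic reticulum, where it uses peroxide to form disulfides in folding proteins. It had 33.7, 27.1 and 22.2 CPM with enzalutamide, against 107, 115 and 110.4 CPM with DMSO. The enzalutamide mean was 0.250 times the DMSO mean, the largest change in either direction among the members (log2 change -2.00 ± 0.15, adjusted p = 1.56e-06). PRDX5, which acts in mitochondria, peroxisomes and cytosol, had 174, 122 and 97.7 CPM with enzalutamide and 88.1, 94.1 and 92.7 CPM with DMSO. Its log2 change of 0.52 ± 0.18 (adjusted p = 0.0282) was 0.28 to 0.69 under the alternatives, and its adjusted p was 0.0556 to 0.0880 without any DMSO library. PRDX1, the abundant cytosolic peroxiredoxin, had 768, 665 and 563 CPM with enzalutamide and 532, 541 and 527 CPM with DMSO. It rose by a log2 change of 0.32 ± 0.11 (adjusted p = 0.0332), with adjusted p of 0.0774 without enzalutamide replicate 2, 0.0792 to 0.102 without any DMSO library and 0.0577 with the replicate block.

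Per length, PRDX1 was the highest member in both groups, with 442 ± 68.0 RPKM with enzalutamide and 354 ± 4.62 RPKM with DMSO (SD, n = 3 each). PRDX4 was sixth of the 7 in this family in both groups, at 14.9 ± 3.10 RPKM with enzalutamide and 59.7 ± 2.01 RPKM with DMSO. It took 1.47% of the family's summed RPKM with enzalutamide and 6.27% with DMSO. PRDX2, PRDX3 and PRDX6, all past the threshold when enzalutamide replicate 1 was left out, then had log2 changes of -0.23, -0.19 and -0.23. With all libraries these changes were 0.01, -0.21 and -0.12. SRXN1, which repairs overoxidised peroxiredoxins, had 4.37, 2.95 and 1.43 CPM with enzalutamide and 4.51, 5.13 and 4.41 CPM with DMSO (log2 change -0.67 ± 0.30, adjusted p = 0.0816). Without enzalutamide replicate 1 its log2 change was -1.05 (adjusted p = 4.82e-04). These 4 genes were singled out after their values were seen.

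**Figure D4:**
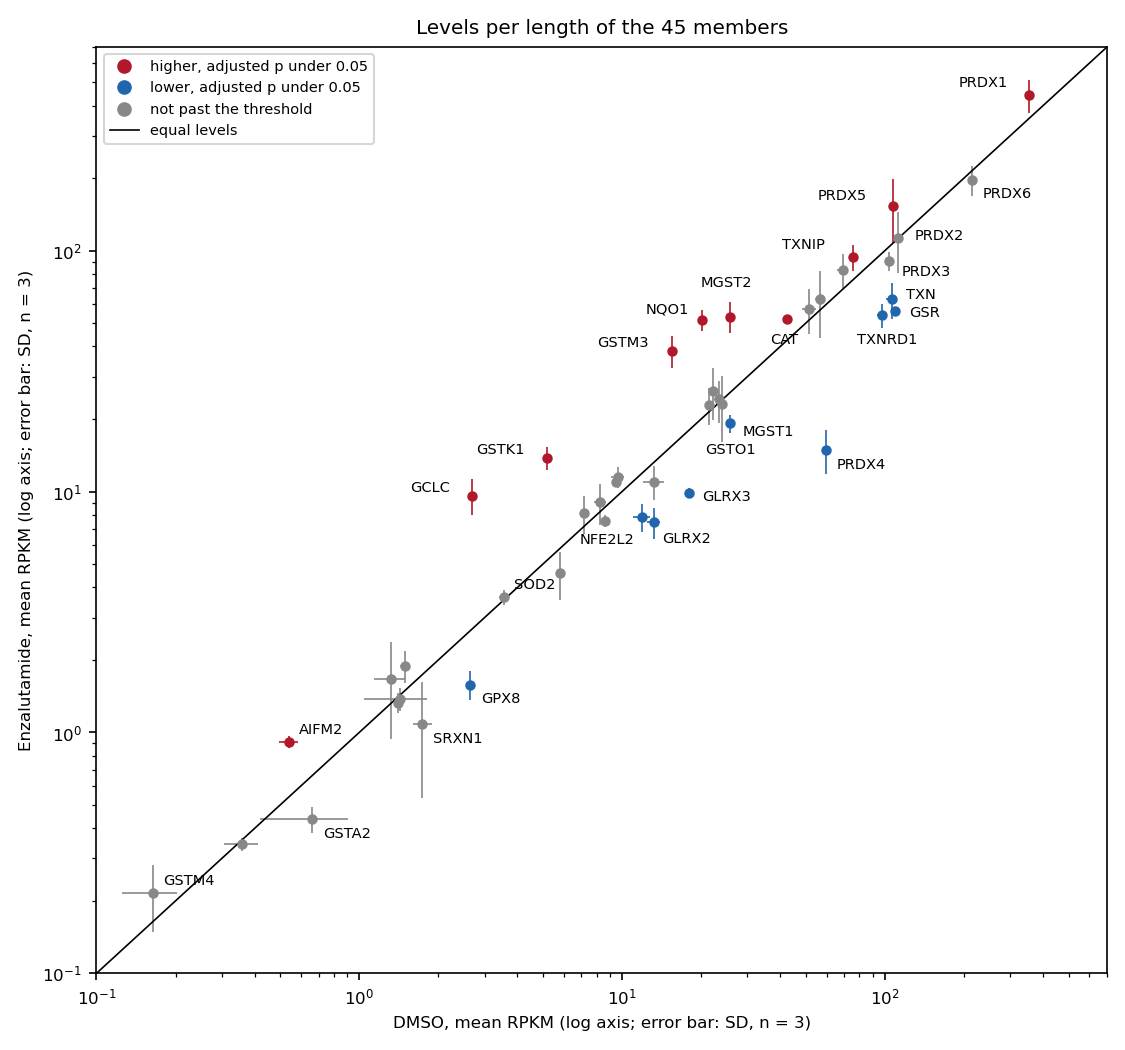
Mean RPKM of each member with enzalutamide (vertical axis) against DMSO (horizontal axis), both on log axes, with bars for the SD over 3 libraries. PRDX1 is highest in both groups, GCLC lies furthest above the line of equal levels and PRDX4 furthest below it.

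Both quinone reductases rose. NQO1, on chr16:69706996-69726668, reduces quinones by a pair of electrons at a time and is a standard NRF2 target. It had 169, 152 and 138 CPM with enzalutamide, against 59.0, 61.2 and 59.4 CPM with DMSO (log2 change 1.35 ± 0.10, adjusted p = 1.96e-06). AIFM2, also called FSP1, keeps coenzyme Q reduced at the plasma membrane and limits lipid peroxidation. It had 5.00, 4.54 and 4.52 CPM with enzalutamide, against 2.71, 3.02 and 2.57 CPM with DMSO (log2 change 0.76 ± 0.14, adjusted p = 8.43e-04). Every enzalutamide library exceeded every DMSO library for both genes, and AIFM2 was low in both groups, at 0.912 and 0.539 RPKM.

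Catalase rose and no superoxide dismutase passed the test. CAT, which breaks down hydrogen peroxide in peroxisomes, had 188, 188 and 181 CPM with enzalutamide and 154, 148 and 154 CPM with DMSO. Its log2 change was 0.29 ± 0.08 (adjusted p = 0.0136), and its adjusted p was 0.0505 to 0.0805 without any DMSO library and 0.0713 with the replicate block. SOD1, the cytosolic copper-zinc dismutase, had 193, 173 and 138 CPM with enzalutamide and 148, 136 and 136 CPM with DMSO (log2 change 0.27 ± 0.12, adjusted p = 0.0902). SOD2, the mitochondrial manganese dismutase, had 54.9, 63.0 and 62.1 CPM with enzalutamide and 60.6, 56.5 and 57.5 CPM with DMSO (log2 change 0.04 ± 0.10, adjusted p = 0.728). The ranges of SOD1 and of SOD2 overlap between the groups. SOD3, the secreted dismutase, was at 0.34 ± 0.27 and turned to -0.07 without enzalutamide replicate 1.

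Of the regulators, NFE2L2 fell and KEAP1 did not pass. NFE2L2 had 38.0, 49.7 and 45.3 CPM with enzalutamide, against 73.0, 63.1 and 66.9 CPM with DMSO, without overlap (log2 change -0.61 ± 0.12, adjusted p = 0.00164). KEAP1 had 119, 84.2 and 76.4 CPM with enzalutamide and 78.5, 80.9 and 78.8 CPM with DMSO (log2 change 0.23 ± 0.15, adjusted p = 0.217). Enzalutamide replicate 1 was the highest of the 6 libraries for KEAP1 and the lowest enzalutamide library for NFE2L2. Other members also share exon bases with a gene on the other strand, so their counts are uncertain if strand was not used. PRDX1 shares 379 with MMACHC (log2 change -0.78), SOD2 298 with WTAP (-0.62), GLRX5 301 with SNHG10 (-0.62), TXNL1 234 with WDR7 (0.72), GSTM3 202 with AL158847.1 (3.02), NFE2L2 190 with AC079305.1 (-0.33) and AIFM2 13 with H2AFY2 (-0.61). AL158847.1 averaged 0.304 CPM with enzalutamide and 0.0344 CPM with DMSO, where GSTM3 averaged 182 and 73.7 CPM. AC079305.1 averaged 0.236 and 0.300 CPM, where NFE2L2 averaged 44.3 and 67.7 CPM. The other partners in this list averaged 9.33 CPM or more in each group. The part of shared bases in the members' values was not tested. NRF2 is regulated largely through the stability of its protein, which these counts do not measure.

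The members were next set beside other genes of their pathways, in lists matched to the table and compared with the 30.0% of all genes that were higher and the 29.2% that were lower. Some lists share genes, such as TKT, SLC7A11, SQSTM1 and EPHX1, so their counts are not independent. Of 25 other NRF2 targets, 7 rose and 11 fell, 7 did not pass, and the median log2 change was -0.33. HMOX1, which degrades haem, rose by a log2 change of 1.66 ± 0.17 and EPHX1, an epoxide hydrolase, by 1.41 ± 0.14. CBR3, a carbonyl reductase, changed by -1.30 ± 0.23 and TKT, transketolase of the pentose phosphate pathway, by -1.29 ± 0.17. Members known as NRF2 targets also moved both ways, with GCLC and NQO1 higher and TXNRD1 and GSR lower. Of 12 NRF2 regulators and partners, 4 rose and 4 fell: MAFF, a small MAF partner, by 1.81 ± 0.18 and SQSTM1, which binds KEAP1, by 0.82 ± 0.13, against NFE2L3, a relative of NRF2, at -1.13 ± 0.13 and BACH1, a repressor at the same element, at -0.80 ± 0.15. Without enzalutamide replicate 1, 7 of the 12 were lower. With the replicate block, or without DMSO replicate 1 or 3, 2 were higher.

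Of 19 genes that supply the amino acids of glutathione or break it down, 11 fell, 4 rose and 4 did not pass (median log2 change -0.47). SLC7A11, the cystine importer, had 84.1, 108 and 105 CPM with enzalutamide, against 235, 208 and 218 CPM with DMSO (log2 change -1.15 ± 0.11, adjusted p = 1.45e-05). Its level and that of GCLC thus moved in opposite directions. SLC1A5, a glutamine carrier, fell by a log2 change of -2.12 ± 0.15, and GGCT and CHAC2, which act in glutathione breakdown, by -2.06 ± 0.15 and -1.34 ± 0.13. Of 16 genes of NADPH supply, 0 rose, 6 fell and 10 did not pass (median -0.11). Those that fell include TKT, given above with the NRF2 targets. MTHFD2, the mitochondrial folate enzyme, was at -1.77 ± 0.10, its cytosolic relative MTHFD1 at -0.94 ± 0.09 and malic enzyme ME1 at -0.89 ± 0.11. Without enzalutamide replicate 1, 2 of the 16 were higher and 10 lower, and with upper quartile scaling 1 was higher.

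Of 11 genes for making selenoproteins, 2 rose, 3 fell and 6 did not pass; without enzalutamide replicate 1, 4 were higher and 5 lower. SECISBP2L, a relative of a factor needed to read UGA as selenocysteine, rose (log2 change 0.73 ± 0.14). SCLY, which recycles selenium, fell by -1.35 ± 0.15, LRP8, a receptor that takes up selenoprotein P, by -1.87 ± 0.12 and SELENOP, its selenium-rich ligand, by -0.97 ± 0.12. Of 15 other selenoproteins, 6 rose, 3 fell and 6 did not pass, and 5 were lower without enzalutamide replicate 1. SELENOT and SELENOM, both of the endoplasmic reticulum, rose by log2 changes of 1.18 ± 0.10 and 1.37 ± 0.21. The deiodinases DIO2 and DIO1 were low and moved in opposite directions. DIO2 had 0.722, 1.29 and 1.28 CPM with enzalutamide and 0.137, 0.0238 and 0.0849 CPM with DMSO. DIO1 had 1.20, 0.775 and 1.09 CPM with enzalutamide and 5.20, 5.35 and 5.63 CPM with DMSO. Another deiodinase, DIO3, averaged under 1 CPM in both groups and was named after its values were seen. It rose by a log2 change of 2.21 ± 0.36 (adjusted p = 4.31e-04).

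Of 20 genes of redox repair, 5 rose, 6 fell and 9 did not pass, and 12 were lower without enzalutamide replicate 1. MSRB3 and MSRB2, which repair oxidised methionine, rose by log2 changes of 1.94 ± 0.18 and 1.22 ± 0.16. ERO1A, the oxidase that makes peroxide while forming disulfides in the endoplasmic reticulum, fell by -1.90 ± 0.12 and TXNDC5, a disulfide isomerase of the same compartment, by -1.35 ± 0.18. ERO1B, the other oxidase of this kind and named after its values were seen, rose by 1.19 ± 0.15 (adjusted p = 9.03e-05). Of 12 enzymes that produce superoxide or peroxide, 5 rose, 2 fell and 5 did not pass. NOX1, a superoxide-producing NADPH oxidase, and DUOX2, which releases hydrogen peroxide, rose by log2 changes of 3.17 ± 0.38 and 3.05 ± 0.32 and DUOXA1, a maturation factor of the dual oxidases, by 2.23 ± 0.44, all from under 1 CPM in each DMSO library. NOX5, the calcium-regulated oxidase, was at -1.01 ± 0.15. With a minimum of 1 CPM in 3 libraries, 3 of this list were higher, and 1 was lower without DMSO replicate 3 or enzalutamide replicate 2.

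Of 15 genes of lipid peroxidation and ferroptosis, 5 rose, 5 fell and 5 did not pass. ACSL4, which loads polyunsaturated fatty acids into lipids, rose by a log2 change of 1.23 ± 0.15. TFRC, the transferrin receptor, fell by -1.65 ± 0.10, MBOAT2, a phospholipid acyltransferase, by -1.87 ± 0.12 and ALOXE3, a lipoxygenase relative, by -1.11 ± 0.27. Of 16 other genes listed under conjugation and detoxification, 10 rose, 4 fell and 2 did not pass (median 0.75). The list is broader than conjugating enzymes. It also holds the channel protein genes CLIC2, CLIC4 and CLIC5 and the gene GDAP1, which rose, and GSTCD, which fell. UGT2B17 and UGT2B15, which glucuronidate androgens, rose by 5.35 ± 0.11 and 3.46 ± 0.19, whereas UGT2B28 was at -3.29 ± 0.21; these relatives are near-identical in places and can share reads. CLIC2, a channel protein with the fold of a glutathione transferase, was at 2.46 ± 0.32.

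**Figure D5:**
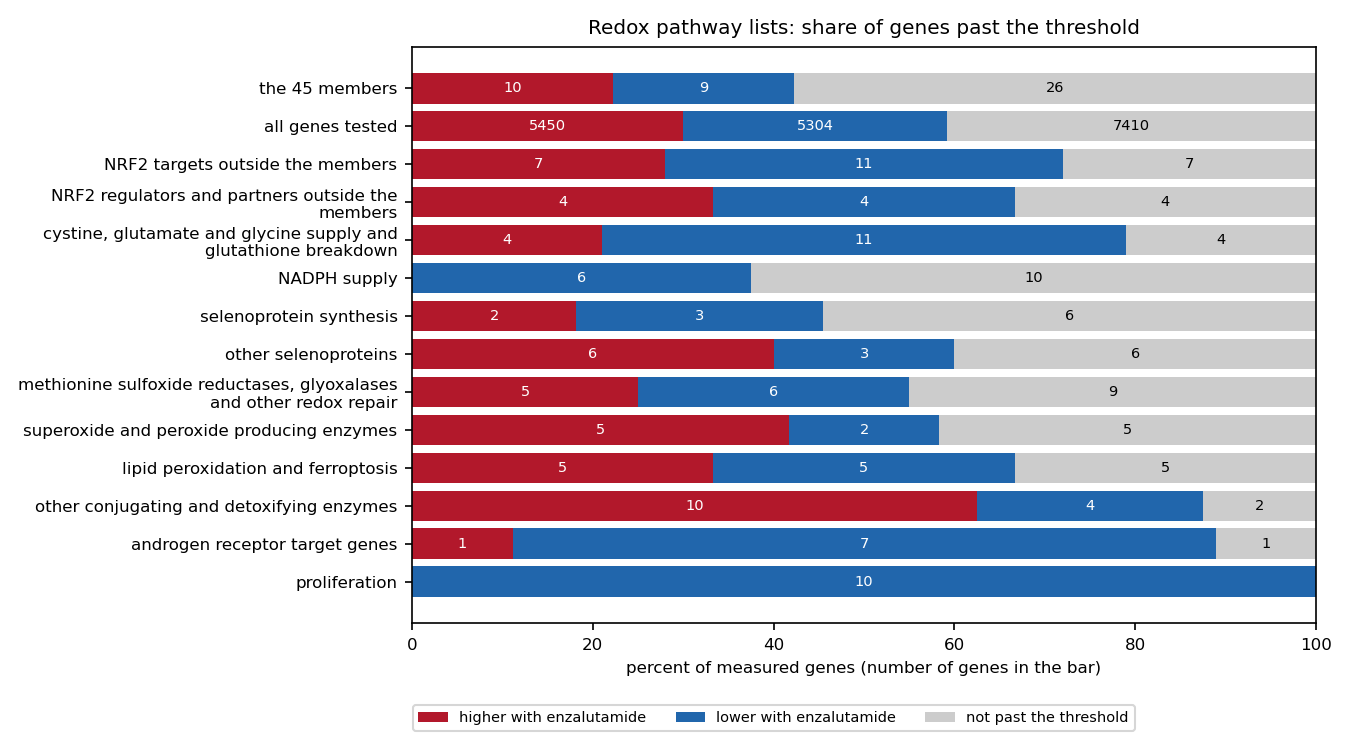
Percent of measured genes that were higher, lower or not past an adjusted p of 0.05 with enzalutamide, for the 45 members, all genes tested and each pathway list, with the number of genes printed in the bars. None of the 16 genes of NADPH supply was higher, and 11 of the 19 of amino acid supply and glutathione breakdown were lower.

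Of 9 androgen receptor targets, 1 rose (2 with upper quartile scaling), 7 fell and 1 did not pass (median log2 change -2.00). KLK2, FKBP5 and STEAP4 fell by -4.48 ± 0.11, -3.88 ± 0.10 and -5.23 ± 0.21. KLK3, which encodes prostate-specific antigen, had 226, 171 and 186 CPM with enzalutamide, against 2589, 2600.0 and 2558 CPM with DMSO. All 10 proliferation genes fell (median -4.05), with log2 changes of -5.85 ± 0.10 for MKI67, -6.10 ± 0.16 for RRM2, -5.09 ± 0.18 for TOP2A and -4.33 ± 0.15 for BUB1. The part of the drop in proliferation in the values of the members was not tested.

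All 10 luminal prostate markers were detected, with summed levels of 6667 to 7027 CPM with enzalutamide and 7774 to 7875 CPM with DMSO. The neuroendocrine list had 4 of 8 genes measured, all higher, at 63.4 to 88.4 CPM with enzalutamide and 22.5 to 26.9 CPM with DMSO, of which ENO2 held most. The 6 of 8 measured fibroblast and smooth muscle markers summed to 24.8 to 28.4 CPM with enzalutamide and 22.1 to 23.3 CPM with DMSO, and the 3 of 6 endothelial markers to 9.41 to 12.3 CPM and 11.2 to 13.4 CPM. Of 5 basal markers KRT14 alone was measured, at 0.699 to 1.28 CPM with enzalutamide and 1.92 to 2.35 CPM with DMSO, and leukocyte markers are not analysed here. Their part in the members' values was not tested.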

How the data were processed

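Polyadenylated RNA of 3 enzalutamide and 3 DMSO libraries was measured. The submitters' processing notes name bcl2fastq, STAR 2.5, featureCounts, Subread 1.6.5, edgeR 3.20.8 and hg38. The deposited table holds whole-number counts per gene, per the file headers. It also holds gene lengths and the authors' log2 values, p-values and false discovery rates, which gave no result here. Deposited genes had a count of at least 9 in 3 or more libraries. The sources do not state whether reads were counted by strand, so overlapping genes are uncertain.

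The main test was the robust quasi-likelihood F test of edgeR 4.0.16 (R 4.3.3) with group as its only term and 4 residual degrees of freedom, after TMM scaling. The filterByExpr filter removed 0 genes. Benjamini-Hochberg adjustment covered all 18164 genes and the threshold was 0.05. The SE is the absolute log2 change over the square root of F. RPKM used the deposited lengths. Each pair of libraries differed by more than counting noise (chi-square per degree of freedom at least 3.79 within groups). Scripts were tested on simulated data. Alternatives used DESeq2 1.42.0, limma 3.58.1, other scalings and filters, the replicate number as a block, and left out each library.

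Members and lists were chosen with earlier results of these data known. Named members are those fixed for their role, and then up to 14 more past the threshold, taken by absolute log2 change where the higher group's mean reached 1 CPM. Up to 4 genes per list were named in the same way. GSTP1 is not analysed here. Sequences come from RefSeq and GENCODE.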

Additional observations from a re-analysis of the deposited data

How the results depend on the processing

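Of the 19 members past the threshold, 15 passed in all 15 alternatives and 0 changed sign. Among these alternatives, the fit without a count filter could not differ from the main fit, since that filter had removed 0 genes. Correlations of deviations were -0.33, -0.48 and 0.19 between same-numbered libraries and -0.37 to 0.50 between libraries of different number. With deviations taken from means of 3 libraries, these values cannot decide whether the replicate numbers pair the libraries. With the replicate block 17 members passed (7 higher, 10 lower), CAT, PRDX1 and TXNIP missing the threshold and SRXN1 joining, and 5084 genes were higher and 5090 lower. Leaving out 1 library gave 6 to 13 higher and 9 to 15 lower members, and 4 to 12 changed genes of NADPH supply, 5 to 9 of selenoprotein synthesis and 10 to 19 of redox repair. The highest of each came without enzalutamide replicate 1; the cause was not tested. Upper quartile scaling shifted the median of all genes by 0.13 and made 59.5% of calls higher, against 50.7%. It called 14 members higher and turned the signs of PRDX6 (0.01), GLRX (0.05), GSTO2 (0.06), GSTO1 (0.07) and GSTA1 (0.07). PRDX2 was -0.02 with limma-voom and -0.03 with the replicate block. Leaving out 1 library turned the sign of 11 members that had not passed the test, with log2 changes of -0.07 to 0.53 for SOD3, -0.03 to 0.24 for TXN2, -0.03 to 0.22 for TXNRD2, -0.11 to 0.31 for GPX4, -0.04 to 0.18 for GLRX5, -0.13 to 0.00 for GLRX, -0.15 to 0.06 for GSTO2, -0.12 to 0.13 for GSS, -0.28 to 0.15 for GSTO1, -0.19 to 0.20 for GSTA1 and -0.23 to 0.16 for PRDX2. The 47 pathway genes named by the rule above kept their direction and their side of the threshold wherever they were tested. ERO1B and DIO3, named after their values were seen, are not among them. DIO2 and DUOXA1 did not enter the stricter filter of 1 CPM in 3 libraries. With 3 libraries in each group, log2 changes of the size of those of PRDX1, TXNIP and CAT lie near the smallest that passed.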

Other observations

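GSTT1, a theta-class transferase placed on an alternate scaffold and so outside the members, had 49.9, 35.2 and 30.1 CPM with enzalutamide and 22.8, 24.4 and 23.3 CPM with DMSO (log2 change 0.71 ± 0.17, edgeR adjusted p = 0.00491). SOD2-OT1, a long non-coding RNA at SOD2, had 2.83, 1.98 and 2.31 CPM with enzalutamide and 1.94, 1.83 and 1.27 CPM with DMSO (log2 change 0.49 ± 0.21, adjusted p = 0.0637).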
